A study of Mus musculus with 12 samples.

Results

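The 10 genes followed here belong to the canonical Wnt pathway: *Axin2*, *Lef1*, *Tcf7*, *Sp5*, *Nkd1*, *Notum*, *Dkk1*, *Rspo3*, *Sfrp1* and *Lgr5*. They were listed by name as Wnt targets and feedback genes, with no threshold on their values, and are 10 of the 46517 genes counted. The choice was made with earlier results of these data known, so their counts and medians beside all genes describe the set only. RNA from 12 libraries was sequenced, 3 from each of 4 groups: wild-type (WT) and *Meteor* knockout (KO) mouse embryonic stem cells (ESCs) at day 0, and the same 2 genotypes at day 3 of differentiation. All cells, WT included, carry EGFP inserted at the endogenous *Eomes* gene, and the strain background is given as C57BL/6. *Meteor* is a transcribed enhancer upstream of *Eomes*, and it was deleted with CRISPR-Cas9 in clones picked after transfection, with the clone or clones behind these libraries not named. Day 0 cells were kept as ESCs on mouse embryonic fibroblast feeders. Day 3 samples were whole embryoid bodies formed in hanging drops, a culture that takes ESCs toward cardiac mesoderm, and they were not sorted. The comparisons ask how the Wnt genes stood with and without the enhancer in ESCs, and how each genotype changed them by day 3. Nothing in the labels states that the replicates were separate cultures, so p-values measure the spread between these samples, which may be technical.

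In canonical Wnt signaling a secreted Wnt protein binds a Frizzled receptor and an Lrp5 or Lrp6 co-receptor, a cytoplasmic complex built on Axin stops degrading β-catenin, and β-catenin enters the nucleus and works with DNA-binding proteins of the TCF/LEF family. Many of the genes switched on in this way act back on the pathway, some as inhibitors at the cell surface or in the cytoplasm and others as amplifiers. In the early mouse embryo the pathway is known for its part in forming the primitive streak and the mesoderm and endoderm that come from it, and in cultured ESCs it bears on self-renewal.

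The TCF/LEF proteins bind DNA at a core that reads CTTTGA or CTTTGT on one strand. RefSeq windows from 250 bases before to 50 bases after a transcription start (GRCm38.p6) were held for 6 of the 10 genes, in 10 windows, and 3 of these windows contained a core on either strand. Either core occurred in 31.2% of all 32851 mouse windows of this length, CTTTGA in 16.0% and CTTTGT in 18.7%, so a match is common and describes the sequence only. The 250 bases before the start are shown for *Sp5* and *Dkk1*, whose windows contain cores and whose day 3 RNA differed most between genotypes among these genes, and for *Axin2*, whose window has none. Capitals mark each core, read 5′ to 3′ on the strand of the gene, with TCAAAG and ACAAAG being the cores of the opposite strand. The intervals are chr2:70474673-70474922 on the plus strand for *Sp5*, chr19:30549497-30549746 on the minus strand for *Dkk1* and chr11:108920099-108920348 on the plus strand for *Axin2*.
Sp5: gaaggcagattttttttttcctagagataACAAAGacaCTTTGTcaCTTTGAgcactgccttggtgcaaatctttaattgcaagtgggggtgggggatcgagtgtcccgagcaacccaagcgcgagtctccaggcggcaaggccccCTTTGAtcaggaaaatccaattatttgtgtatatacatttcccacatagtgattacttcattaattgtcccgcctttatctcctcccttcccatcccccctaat
Dkk1: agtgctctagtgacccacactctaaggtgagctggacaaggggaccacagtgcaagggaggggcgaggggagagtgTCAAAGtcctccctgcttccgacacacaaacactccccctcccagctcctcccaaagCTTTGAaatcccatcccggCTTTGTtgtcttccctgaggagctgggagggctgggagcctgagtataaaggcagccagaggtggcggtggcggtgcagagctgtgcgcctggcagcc
Axin2: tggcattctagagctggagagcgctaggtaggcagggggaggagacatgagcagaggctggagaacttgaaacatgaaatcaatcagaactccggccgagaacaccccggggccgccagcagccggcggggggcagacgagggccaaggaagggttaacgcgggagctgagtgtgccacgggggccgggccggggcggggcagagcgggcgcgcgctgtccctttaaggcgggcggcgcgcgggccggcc

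The *Sp5* stretch contained 4 cores, 3 of them close together between 221 and 204 bases before the start and the fourth 104 bases before it. The fourth reads on as CTTTGATC, a longer form present in 0.938% of all windows. In *Dkk1* the 3 cores began 174, 117 and 98 bases before the RefSeq start. GENCODE places the start of this minus-strand gene at chr19:30549665, within the stretch shown. By that position the cores at 117 and 98 bases lie inside the gene. Of the 4 *Lef1* windows, 1 at an internal start (chr3:131156044-131156343) contained 3 cores, and the *Tcf7* and *Nkd1* windows contained none. The *Nkd1* window (chr8:88527383-88527682) is also at an internal start, since the gene begins at chr8:88521354 in GENCODE. No window at that first start of *Nkd1* was held.

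Between 17455927 and 23910943 reads per library were counted on genes, so that 1 CPM (a count scaled to library size) was 17.5 to 23.9 reads. The *Meteor* locus transcript ENSMUSG00000103968 measured 1.35 to 5.84 CPM in the 6 WT libraries and had no read in the 6 KO libraries, and *Platr11* of the same locus measured 0.513 to 6.12 CPM in WT and 0 to 0.055 CPM in KO, which matches the labels. *Upf3b*, a nonsense-mediated decay factor on the X chromosome, measured 45.5 to 55.9 CPM in WT and 0 to 0.661 CPM in KO libraries, a difference of the KO line beyond the *Meteor* locus whose part in the results below was not tested. Pluripotency markers summed to 3431 to 3920 CPM in WT and 4851 to 5207 CPM in KO at day 0. 2 WT libraries stood apart by the sums of these marker lists. WT day 0 replicate 3 had 187 CPM of primitive streak and mesendoderm markers in sum, against 57.4 and 81.4 CPM in the other WT day 0 libraries, and WT day 3 replicate 3 had 401 CPM of primitive and visceral endoderm markers, against 112 and 118 CPM. The latter also differed in the streak and mesendoderm list, with a lower sum (1371 CPM against 1941 and 1719 CPM) but more *Kdr* (258 CPM against 21.8 and 19.2 CPM). Between genotypes, a value is also given without the library of its day where leaving it out changed a call or moved the fold by over 1.5 times. Feeder fibroblast markers summed to 91.8 to 300 CPM in WT and 139 to 383 CPM in KO libraries at day 0, with no gene of the list at 0 in any group, and 0 of its 11 tested genes differed between genotypes at day 0 by edgeR. At an unadjusted p under 0.05, 3 of them (*Col3a1*, *Thy1* and *Prrx1*) were higher in KO, and DESeq2 called 1, *Prrx1*, and limma-voom 0.

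At day 3 KO embryoid bodies had far less RNA than WT of 7 of the 10 genes: *Sp5*, *Dkk1*, *Rspo3*, *Lgr5*, *Axin2*, *Nkd1* and *Lef1* fell, with ratios of means from 130-fold for *Sp5* to 2.96-fold for *Lef1*, and in all 7 the WT and KO libraries did not overlap. How many of all tested genes also did not overlap was not counted. *Tcf7*, *Notum* and *Sfrp1* did not pass the test, and with all libraries no gene rose by edgeR, DESeq2 or limma-voom, nor at an unadjusted p under 0.05. Without WT day 3 replicate 3, edgeR called 8 genes lower, *Tcf7* included, and *Sfrp1* higher (log2 1.03, adjusted p = 0.000157). In that setting 1672 of all 15406 tested genes fell and 1734 rose. Among all 15673 genes tested at day 3, 16.7% fell and 14.3% rose in KO. The median log2 fold change of the 10 genes was −3.003, beside −0.002 over all tested genes. These are whole cultures, so fewer cells that make an RNA and less of it per cell cannot be told apart. At day 0 the count was similar but the genes were partly others: *Sp5*, *Lef1*, *Lgr5*, *Nkd1*, *Tcf7* and *Axin2* were lower in KO, *Sfrp1* was higher, and *Notum*, *Dkk1* and *Rspo3* did not pass. Of all tested genes, 10.9% fell and 9.56% rose in KO at day 0. The median of the 10 genes was −1.45 on the log2 scale, beside −0.009 over all tested genes. Without WT day 0 replicate 3, 4 genes remained below the threshold of adjusted p 0.05, all lower in KO, with *Axin2*, *Lgr5* and *Sfrp1* no longer called. In that setting 929 of all 15650 tested genes fell and 788 rose.

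**Figure D1:**
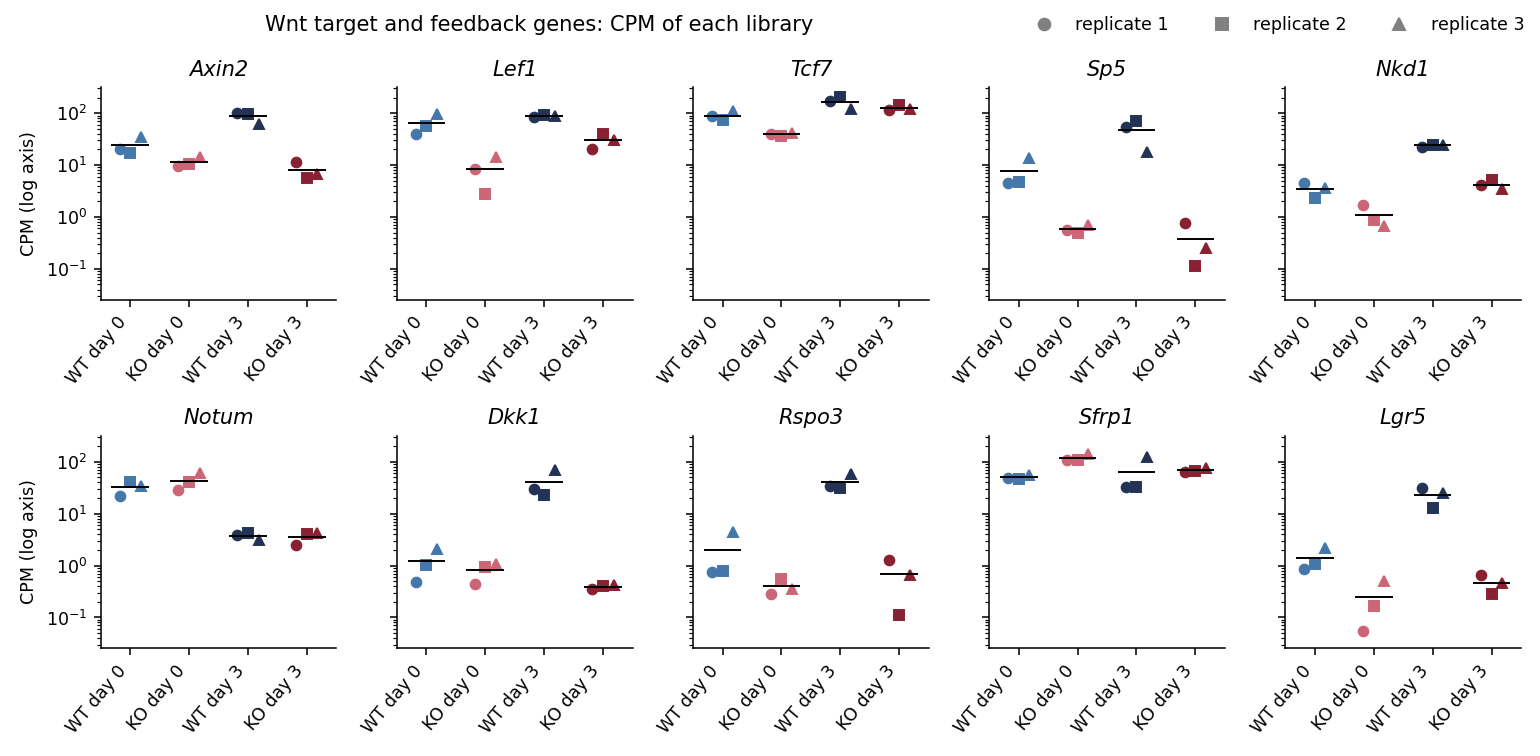
Each panel shows 1 gene, with CPM on a log axis for the 3 libraries of each group (circle, square and triangle for replicates 1, 2 and 3) and a line at the group mean. At day 3 the KO libraries of *Sp5*, *Dkk1*, *Rspo3* and *Lgr5* lie at or below 1.3 CPM while every WT library is at 13.1 CPM or above, and *Notum* is low at day 3 in both genotypes.

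The DNA-binding genes of the set were *Lef1*, *Tcf7* and *Sp5*. *Lef1* (ENSMUSG00000027985, chr3:131110471-131224356) encodes a β-catenin partner on DNA and is itself a Wnt target. It measured 40.5, 56.2 and 94.9 CPM in WT day 0 libraries and 8.29, 2.81 and 14.5 CPM in KO day 0 libraries. At day 3 it measured 84.7, 94.3 and 89.1 CPM in WT and 20.1, 39.8 and 30.6 CPM in KO. The genotypes did not overlap at either day, and KO cells gained *Lef1* between the days while staying below every WT library of day 3. The KO effect was −2.90 ± 0.43 on the log2 scale (SE, n = 3 per group, edgeR adjusted p = 0.00174) at day 0 and −1.60 ± 0.40 (adjusted p = 0.0136) at day 3. In edgeR the day 3 call was lost when WT replicate 2, KO replicate 1 or KO replicate 3 was left out, with adjusted p from 0.051 to 0.076.

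*Tcf7* (ENSMUSG00000000782, chr11:52252371-52283014), which encodes the TCF1 protein, stood at 87.7, 73.1 and 109 CPM in WT and at 39.8, 36.5 and 41.0 CPM in KO at day 0. At day 3 its WT libraries had 171, 206 and 120 CPM and its KO libraries 115, 141 and 122 CPM. The groups were apart at day 0 and overlapped at day 3, where WT replicate 3 was as low as the KO libraries. Its KO effect was −1.21 ± 0.20 (log2, adjusted p = 0.0031) at day 0 and −0.39 ± 0.20 (adjusted p = 0.158) at day 3. Without WT day 3 replicate 3 the day 3 effect was −0.60 (adjusted p = 0.0212), and with the replicate block within each day it was −0.36 (adjusted p = 0.0293).

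*Sp5* (ENSMUSG00000075304, chr2:70474923-70477729) encodes a zinc-finger transcription factor and is a direct Wnt target in ESCs. WT day 0 libraries had 4.42, 4.70 and 13.7 CPM of *Sp5*, and KO day 0 libraries had 0.56, 0.496 and 0.715 CPM. WT day 3 libraries had 55.0, 72.0 and 18.005 CPM, and KO day 3 libraries had 0.75, 0.114 and 0.25 CPM, which were 15, 2 and 6 reads. Every KO library was below every WT library, also across the days. For *Sp5* the KO effect was −3.66 ± 0.76 (log2, adjusted p = 0.00846) at day 0 and −7.00 ± 0.81 (adjusted p = 0.000302) at day 3, the 21st largest decrease of all tested genes. It was −2.54 (adjusted p = 0.0227) at day 0 without WT day 0 replicate 3, and −7.74 (adjusted p = 4.63e-05) at day 3 without WT day 3 replicate 3. The day 0 effect did not pass with limma-voom (adjusted p = 0.0659). The WT libraries that stood apart also differed here: *Sp5* was highest at day 0 in WT replicate 3, the library with the most mesendoderm marker RNA, and lowest of WT at day 3 in replicate 3, the library with the most endoderm marker RNA. The part of these cells in the spread was not tested.

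*Axin2* and *Nkd1* encode inhibitors inside the cell. *Axin2* (ENSMUSG00000000142, chr11:108920349-108950783) encodes a scaffold of the complex that degrades β-catenin, and its RNA is the usual readout of canonical Wnt activity. In WT it measured 20.0, 16.9 and 35.2 CPM at day 0 and 102, 95.0 and 62.9 CPM at day 3. In KO it measured 9.42, 10.4 and 14.6 CPM at day 0 and 11.3, 5.63 and 6.62 CPM at day 3. WT and KO were close but apart at day 0, and 10.99-fold apart by their means at day 3. The KO effect at day 3 was −3.49 ± 0.35 (log2, adjusted p = 0.000147). At day 0 it was −1.05 ± 0.33 (adjusted p = 0.0467), a call that did not hold with limma-voom (adjusted p = 0.0852) or when any of 5 of the 6 day 0 libraries was left out, the largest change being without WT day 0 replicate 3 (log2 −0.61, adjusted p = 0.249).

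*Nkd1* (ENSMUSG00000031661, chr8:88521354-88594884) encodes a Dishevelled-binding inhibitor that Wnt signaling induces. It had 4.59, 2.30 and 3.59 CPM in WT and 1.74, 0.882 and 0.664 CPM in KO at day 0. By day 3 it had 22.7, 24.5 and 24.4 CPM in WT and 4.05, 5.12 and 3.50 CPM in KO. The 3 WT day 3 libraries were alike, including replicate 3, and KO day 3 libraries reached about the level of WT day 0. Its log2 KO effect was −1.69 ± 0.34 (adjusted p = 0.00682) at day 0 and −2.51 ± 0.29 (adjusted p = 0.00033) at day 3.

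*Dkk1*, *Notum* and *Sfrp1* encode secreted inhibitors, and each had its own pattern. *Dkk1* (ENSMUSG00000024868, chr19:30545863-30549665) encodes an antagonist that binds Lrp5 and Lrp6. It was near 1 CPM at day 0, with 0.491, 1.04 and 2.06 CPM in WT and 0.448, 0.937 and 1.07 CPM in KO. At day 3 it reached 29.4, 23.1 and 70.9 CPM in WT and was 0.35, 0.398 and 0.416 CPM in KO, the latter being 7, 7 and 10 reads. The groups overlapped at day 0 and stood far apart at day 3, with means of 41.1 and 0.388 CPM. The difference between KO and WT was −0.48 ± 0.38 (log2, adjusted p = 0.409) at day 0 and −6.65 ± 0.37 (adjusted p = 9.73e-06) at day 3.

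*Notum* (ENSMUSG00000042988, chr11:120653788-120661175) encodes an enzyme that removes the lipid from Wnt proteins. Its day 0 libraries had 21.6, 41.6 and 34.1 CPM in WT and 28.4, 40.7 and 60.4 CPM in KO. Its day 3 libraries had 3.96, 4.33 and 3.10 CPM in WT and 2.45, 4.15 and 4.20 CPM in KO. The genotypes overlapped at both days, and both had far less *Notum* at day 3. KO and WT differed by 0.41 ± 0.22 (log2, adjusted p = 0.228) at day 0 and −0.13 ± 0.26 (adjusted p = 0.739) at day 3.

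*Sfrp1* (ENSMUSG00000031548, chr8:23411502-23449632) encodes a secreted protein with a Frizzled-like domain that binds Wnts. It was the gene of the set that was higher in KO at day 0, with 48.7, 47.3 and 56.2 CPM in WT and 110, 110 and 139 CPM in KO. Its day 3 libraries had 32.3, 32.8 and 124 CPM in WT and 65.0, 66.0 and 76.5 CPM in KO. WT day 3 replicate 3 alone lay above the KO libraries, and the other WT libraries lay below them. The KO effect was 1.22 ± 0.32 (log2, adjusted p = 0.0243) at day 0, with adjusted p = 0.0557 without the replicate block and from 0.058 to 0.111 when WT replicate 2 or 3 or KO replicate 1 or 2 was left out. At day 3 it was 0.33 ± 0.32 (adjusted p = 0.476) with all libraries and 1.03 (adjusted p = 0.000157) without WT day 3 replicate 3. Fibroblasts also make *Sfrp1*, and at day 0 the summed feeder markers were higher in KO than in the WT library of the same number in 3 of 3 pairs, at 139, 383 and 256 CPM against 91.8, 300.1 and 157 CPM, and their part in the difference was not tested. In the same order of libraries, *Sfrp1* measured 110, 110 and 139 CPM in KO and 48.7, 47.3 and 56.2 CPM in WT. How its level relates to the feeder sum was not tested.

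*Lgr5* and *Rspo3* encode a receptor and a ligand that amplify Wnt signals: R-spondins bind Lgr receptors and keep Frizzled at the cell surface. *Lgr5* (ENSMUSG00000020140, chr10:115450311-115587780) had 0.874, 1.10 and 2.22 CPM in WT day 0 libraries and 0.056, 0.165 and 0.511 CPM in KO day 0 libraries, the latter from 1, 3 and 10 reads. At day 3 it had 31.7, 13.1 and 25.1 CPM in WT and 0.65, 0.284 and 0.458 CPM in KO. Each KO group lay below the WT group of its day. For *Lgr5* the KO effect was −2.49 ± 0.54 (log2, adjusted p = 0.0106) at day 0, with adjusted p = 0.0605 without WT day 0 replicate 3, and −5.63 ± 0.45 (adjusted p = 6.19e-05) at day 3.

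*Rspo3* (ENSMUSG00000019880, chr10:29452416-29535867) had 0.764, 0.783 and 4.49 CPM in WT and 0.28, 0.551 and 0.358 CPM in KO at day 0. At day 3 it had 34.6, 31.2 and 58.1 CPM in WT and 1.3, 0.114 and 0.666 CPM in KO, the latter from 26, 2 and 16 reads. The WT day 0 spread came from replicate 3, the library with the most mesendoderm marker RNA. The KO effect was −2.13 ± 0.73 (log2) at day 0 with an adjusted p of 0.0665, although the libraries did not overlap. It was −1.11 (adjusted p = 0.368) without WT day 0 replicate 3, and the adjusted p was 0.0286 with the replicate block within each day. At day 3 the effect was −5.90 ± 0.62 (adjusted p = 0.000202).

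**Figure D2:**
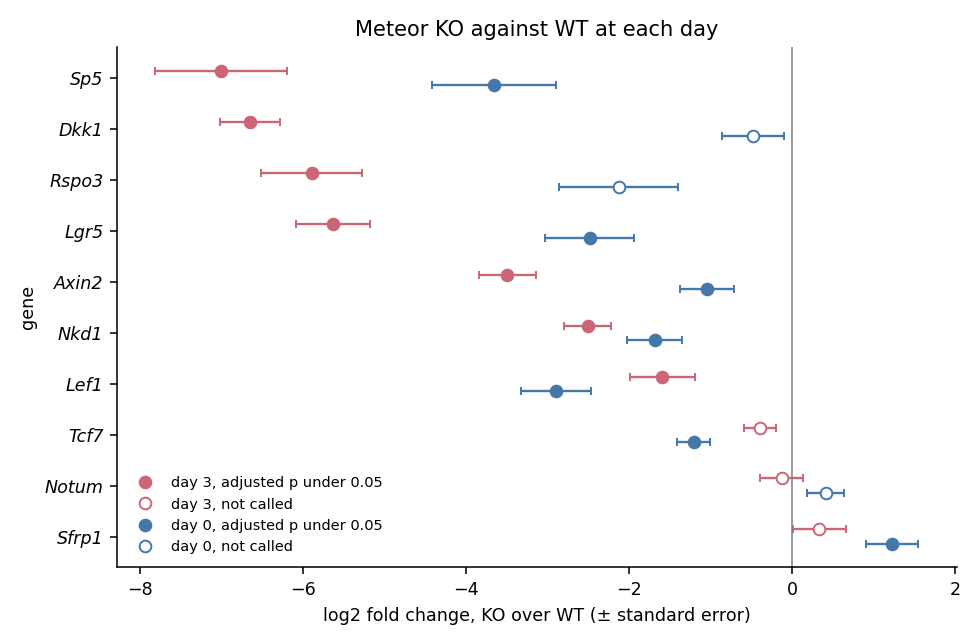
Log2 fold change of KO over WT with its standard error for each gene at day 3 (red) and day 0 (blue), filled where the adjusted p was under 0.05. *Sp5*, *Dkk1*, *Rspo3* and *Lgr5* lie beyond −5 at day 3, while *Lef1* and *Tcf7* lie further from 0 at day 0 than at day 3.

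The course from day 0 to day 3 differed by genotype for some of the genes, as the direct test further below shows. In WT, 7 of the 10 genes rose: *Dkk1* 34.3-fold, *Rspo3* 20.5-fold, *Lgr5* 16.7-fold, *Nkd1* 6.84-fold, *Sp5* 6.36-fold, *Axin2* 3.60-fold and *Tcf7* 1.84-fold by the ratio of mean CPM, with adjusted p from 3.12e-06 to 0.005. *Notum* fell, with a mean of 32.5 CPM at day 0 and 3.80 CPM at day 3 (log2 −3.03 ± 0.25, adjusted p = 1.19e-05). *Lef1* (log2 0.58 ± 0.39, adjusted p = 0.226) and *Sfrp1* (log2 0.12 ± 0.33, adjusted p = 0.775) did not pass. Among all tested genes 30.7% rose and 25.5% fell in WT over this time, and the median of the 10 genes was 2.29 beside 0.073. Without WT day 3 replicate 3, *Sfrp1* fell (log2 −0.59, adjusted p = 0.000599). The WT rise of *Sp5* was 2.69 on the log2 scale with all libraries, 3.62 without WT day 0 replicate 3 and 3.51 without WT day 3 replicate 3, and that of *Rspo3* was 4.54 and, without WT day 0 replicate 3, 5.53.

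In KO, 3 of the 10 genes rose over the same time: *Nkd1* (log2 1.98 ± 0.33, adjusted p = 0.000633), *Lef1* (1.88 ± 0.43, adjusted p = 0.0038) and *Tcf7* (1.69 ± 0.20, adjusted p = 7.65e-05). *Notum* fell here too (−3.57 ± 0.26, adjusted p = 2.98e-06). Among all tested genes 29.4% rose and 27.2% fell in KO. The count of rises is near that share, so these values describe single genes. The other 6 did not pass, and their log2 changes ran from −1.08 for *Dkk1* to 0.90 for *Lgr5*. *Dkk1* and *Sfrp1* were close to the threshold, with adjusted p of 0.0589 and 0.0595. With the replicate block within each day 7 genes were called in place of 4, the additional 3 being decreases of *Dkk1*, *Sfrp1* and *Axin2*. WT and KO comparisons of this kind share libraries with the comparisons between genotypes, so they are not independent of them.

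**Figure D3:**
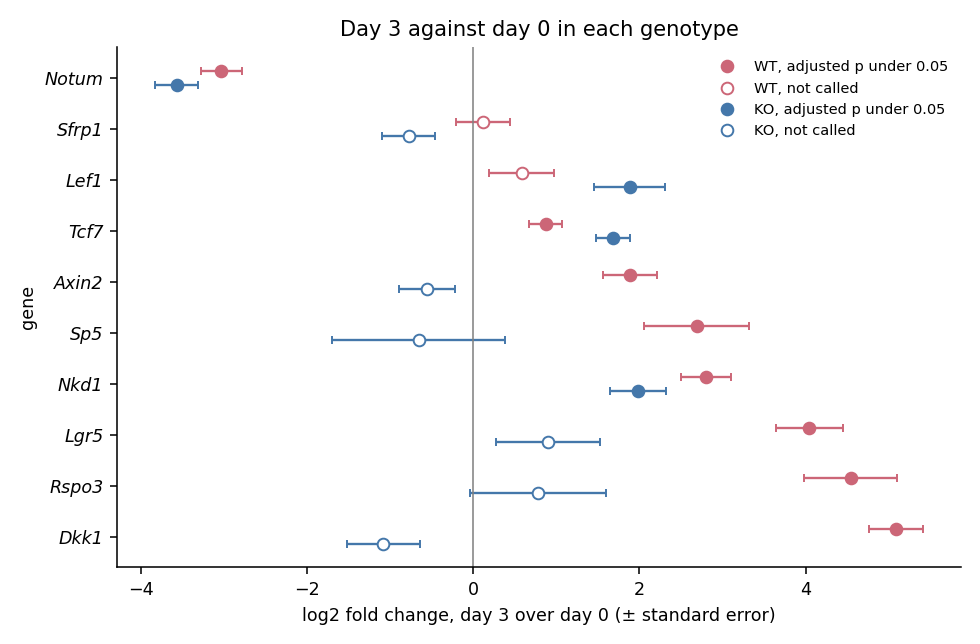
Log2 fold change of day 3 over day 0 with its standard error for each gene in WT (red) and KO (blue), filled where the adjusted p was under 0.05. *Notum* is at about −3 or lower in both genotypes, and *Dkk1*, *Rspo3* and *Lgr5* lie above 4 in WT and between −1.1 and 0.9 in KO.

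The change of the KO effect between the days was tested directly, as the KO effect at day 3 minus that at day 0. It was negative past the threshold for *Dkk1* (log2 −6.17 ± 0.54, adjusted p = 0.000301), *Axin2* (−2.45 ± 0.46, adjusted p = 0.00749), *Lgr5* (−3.15 ± 0.79, adjusted p = 0.0247) and *Rspo3* (−3.77 ± 1.05, adjusted p = 0.037). Of all tested genes, 7.34% were called in this direction and 8.21% in the other. *Sp5* had a similar value with a wider error (−3.35 ± 1.22, adjusted p = 0.0914), and *Nkd1*, *Notum* and *Sfrp1* had values between −0.90 and −0.54 that did not pass. *Lef1* (1.302 ± 0.57, adjusted p = 0.152) and *Tcf7* (0.82 ± 0.28, adjusted p = 0.0766) had positive values, meaning a smaller deficit in KO at day 3, and did not pass. *Rspo3* did not pass without the replicate block (adjusted p = 0.0652) or without WT day 3 replicate 3 (−3.89, adjusted p = 0.0526), and its value was −4.77 (adjusted p = 0.0141) without WT day 0 replicate 3. *Sp5* passed without WT day 0 replicate 3 (−4.32, adjusted p = 0.0138) and without WT day 3 replicate 3 (−4.17, adjusted p = 0.01). Without the latter library the value of *Sfrp1* was −0.20. With the block within each day 7 genes were called, *Sp5* (adjusted p = 0.00555) in the same direction as the 4 and *Lef1* (0.0266) and *Tcf7* (0.00638) in the other.

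Levels of different genes were compared as CPM per kb of exon. In WT at day 3, *Tcf7* was the highest at 63.1 CPM per kb and its libraries were all above those of the other 9 genes. *Sp5* (23.0), *Dkk1* (16.9), *Axin2* (15.7), *Sfrp1* (14.4), *Rspo3* (13.4) and *Lef1* (10.2 CPM per kb) followed, and each overlapped its neighbor in this order. *Nkd1* (5.24), *Lgr5* (2.27) and *Notum* (1.58 CPM per kb) were the lowest, with *Lgr5* and *Notum* overlapping. In KO at day 3 *Tcf7* was again the highest at 48.1 CPM per kb and *Sfrp1* the second at 15.8, both apart from the next gene. *Lef1* had 3.43, *Notum* 1.496, *Axin2* 1.43 and *Nkd1* 0.926 CPM per kb, of which *Notum* overlapped *Axin2* and *Axin2* overlapped *Nkd1*. *Rspo3*, *Sp5*, *Dkk1* and *Lgr5* were between 0.045 and 0.224 CPM per kb. At day 0, WT had *Tcf7* at 34.3, *Notum* at 13.5 and *Sfrp1* at 11.6 CPM per kb as the 3 highest, and KO had *Sfrp1* at 27.3, *Notum* at 17.9 and *Tcf7* at 14.9 CPM per kb. *Notum* overlapped *Sfrp1* in WT and *Tcf7* in KO.

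The genes whose pattern over the 12 libraries was nearest to that of *Axin2* and *Sp5* were found by the root mean square difference of log2(CPM + 0.5), each gene centred on its own mean, over 9494 genes of at least 10 CPM on average. For *Axin2* they were *Tnfrsf19* (0.417), *Slit2* (0.437), *Pcdhgc3* (0.472), *Cask* (0.483) and *Arhgef26* (0.584). *Tnfrsf19*, a receptor of the TNF family, had means of 22.3 and 8.45 CPM in WT and KO at day 0 and of 87.6 and 10.7 CPM at day 3. For *Sp5* they were *Alox15* (0.631), *Wnt8a* (0.871), *Evx1* (0.907), *Wnt3* (0.975) and *Cdh2* (1.053). *Wnt3* and *Wnt8a* encode Wnt ligands, and *Evx1* encodes a homeobox protein of the posterior primitive streak.

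Wnt ligand genes were lower in KO as well. Their summed RNA was 159 to 214 CPM in WT and 12.5 to 17.9 CPM in KO at day 3. There 9 of 13 tested ligands of 19 fell and none rose, beside 16.7% and 14.3% of all tested genes. *Wnt2*, *Wnt2b* and *Wnt9b* were over 1 CPM only in WT day 3 libraries. They entered the test through the group where they were high, so a fall was the only direction open to them at day 3. The largest decreases were *Wnt3a* (means of 2.93 CPM in WT and 0.019 CPM in KO, adjusted p = 0.00101), *Wnt2* (2.28 and 0.031 CPM, adjusted p = 0.000711) and *Wnt5a* (33.0 and 0.98 CPM, adjusted p = 7.34e-05). At day 0 *Wnt3* (5.52 and 0.416 CPM, adjusted p = 0.00544), *Wnt8a* (7.02 and 1.16 CPM, adjusted p = 0.0466) and 1 more ligand fell, and *Wnt6* rose (0.812 and 3.49 CPM, adjusted p = 0.0276). Over all tested genes, 10.9% fell and 9.56% rose at day 0. Without WT day 0 replicate 3, 2 ligands fell and 0 rose at day 0 in edgeR, with 2 lower and 3 higher at an unadjusted p under 0.05. In that setting 929 of all 15650 tested genes fell and 788 rose. There *Wnt3* was at −2.59 on the log2 scale (adjusted p = 0.011, −3.59 with all libraries), and neither *Wnt8a* (−1.77, adjusted p = 0.222) nor *Wnt6* (adjusted p = 0.0673) passed. The day 3 decreases of *Wnt3a* and *Wnt8a* were larger without WT day 3 replicate 3, at −7.56 and −4.66 in place of −6.93 and −4.07.

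Of 17 receptors and co-receptors, 3 fell and 2 rose in KO at day 3, beside 16.7% and 14.3% of all tested genes, and the median was −0.18 on the log2 scale. These shares are near those of all genes, so the values below describe single receptors. *Ror2*, a co-receptor for Wnt5a, had means of 43.5 CPM in WT and 11.3 CPM in KO (log2 −1.94 ± 0.22, adjusted p = 0.000298), and the Frizzled receptors *Fzd10* (24.2 and 8.0 CPM) and *Fzd1* (19.7 and 7.15 CPM) fell with it. *Lgr4*, an R-spondin receptor related to *Lgr5*, was higher in KO (126 and 221 CPM, log2 0.81 ± 0.15, adjusted p = 0.00271), and so was the co-receptor *Lrp5* (102 and 131 CPM, adjusted p = 0.0336, and 0.0677 without WT day 3 replicate 3). At day 0, 4 fell and 2 rose, beside 10.9% and 9.56% of all tested genes. The largest decreases were *Ror1* (5.49 and 1.22 CPM, adjusted p = 0.0726 without WT day 0 replicate 3) and *Fzd2* (20.3 and 5.97 CPM). The increases were *Lgr6* (2.49 and 6.29 CPM) and *Lrp5* (48.3 and 71.7 CPM). Without WT day 0 replicate 3, 2 receptors fell and 3 rose at day 0 in edgeR, with 5 lower and 4 higher at an unadjusted p under 0.05. In that setting 929 of all 15650 tested genes fell and 788 rose. There *Ror2* was higher in KO (log2 0.82, adjusted p = 0.0463, and 0.0884 with all libraries), opposite to its day 3 decrease.

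Among 16 other secreted modulators 9 were tested, and 4 fell and 2 rose at day 3, beside 16.7% and 14.3% of all tested genes. *Cer1* and *Sost* were over 1 CPM only in WT day 3 libraries, so a fall was the only direction open to them at day 3. *Cer1*, an inhibitor of Nodal, BMP and Wnt ligands, had means of 78.8 CPM in WT and 0.423 CPM in KO (log2 −7.53 ± 0.31, adjusted p = 7.42e-07), and *Frzb*, a secreted Frizzled-related inhibitor, had 43.9 and 0.707 CPM (−5.99 ± 0.48, adjusted p = 6.19e-05). *Sost*, an inhibitor at Lrp5 and Lrp6, had 0.56, 0.289 and 2.24 CPM in WT and 0.10, 0.057 and 0.25 CPM in KO (adjusted p = 0.0034), and it did not pass the CPM filter without WT day 3 replicate 3. *Rspo1* (4.39 and 11.4 CPM, adjusted p = 0.000424) and *Sfrp2* (24.3 and 62.9 CPM, adjusted p = 0.0013) rose in KO, so *Rspo1* and *Rspo3* were called in opposite directions. At day 0, 0 of the 9 were called by edgeR or limma-voom, and 1, *Sfrp2*, was lower at an unadjusted p under 0.05 and called by DESeq2.

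Of 10 other feedback genes of the membrane and cytoplasm, 4 fell at day 3 and 3 at day 0, and none rose. Over all tested genes, 16.7% fell and 14.3% rose at day 3, and 10.9% fell and 9.56% rose at day 0. *Apcdd1*, a membrane inhibitor, had means of 20.6 CPM in WT and 3.46 CPM in KO at day 3 (log2 −2.29 ± 0.59, adjusted p = 0.0158). Its WT mean came mostly from replicate 3, at 46.5 CPM against 7.09 and 8.23 CPM, and without that library the effect was −1.08 (adjusted p = 0.00642). *Dact1*, which binds Dishevelled, had 47.1 and 11.9 CPM (adjusted p = 0.00109), and *Kremen2*, a receptor for Dkk1, had 1.70 and 0.623 CPM (adjusted p = 0.0139). At day 0 *Rnf43* (0.80 and 0.182 CPM, adjusted p = 0.0397) and *Znrf3* (43.3 and 30.1 CPM, adjusted p = 0.0107), ubiquitin ligases that remove Frizzled from the membrane, fell. Without WT day 0 replicate 3, 0 of the 10 were called at day 0 by edgeR, with 3 lower and 0 higher at an unadjusted p under 0.05, and *Rnf43* and *Znrf3* had log2 values of −2.28 (adjusted p = 0.114) and −0.46 (adjusted p = 0.0576).

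Of 16 genes of the destruction complex and signal transduction, 3 rose and 1 fell in KO at day 3, each by between 1.202-fold and 1.43-fold. Over all tested genes, 14.3% rose and 16.7% fell at day 3, and 9.56% rose and 10.9% fell at day 0. *Ctnnb1*, which encodes β-catenin, had means of 1194 CPM in WT and 1434 CPM in KO (log2 0.27 ± 0.06, adjusted p = 0.00865). *Dvl1* (48.3 and 68.5 CPM) and *Gsk3a* (92.7 and 112 CPM) were higher and *Csnk1d* (225 and 186 CPM) was lower. Without WT day 3 replicate 3, *Gsk3a* (adjusted p = 0.0569) and *Csnk1d* (adjusted p = 0.0713) did not pass. At day 0 *Csnk1e* (66.9 and 102 CPM) was higher and *Apc2* (2.58 and 1.18 CPM, adjusted p = 0.128 without WT day 0 replicate 3) lower in KO, by 1.52-fold and 2.17-fold in the fit. Of 13 nuclear effectors and co-repressors, 2 rose and 1 fell at day 3. For these 2 lists the shares were near or below those of all genes, so the values describe single genes. *Tcf7l1*, which encodes the repressive TCF3 protein of ESCs, measured 55.0, 64.5 and 77.2 CPM in WT and 141, 160 and 172 CPM in KO at day 3 (log2 1.27 ± 0.13, adjusted p = 0.00014), with no overlap. *Tle4*, a co-repressor, was higher (75.2 and 118 CPM) and *Pygo1*, a β-catenin cofactor, lower (4.44 and 1.85 CPM, adjusted p = 0.0955 without WT day 3 replicate 3). At day 0 *Tcf7l2* was higher in KO (11.6 and 20.5 CPM, adjusted p = 0.0259, and 0.111 without WT day 0 replicate 3).

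Of 16 other reported Wnt targets, 10 fell in KO at day 3 and 5 at day 0, with none rising and 6 and 11 not passing. Over all tested genes, 16.7% fell at day 3 and 10.9% at day 0. Without WT day 0 replicate 3, 0 of the 16 were called at day 0 by edgeR, with 3 lower and 0 higher at an unadjusted p under 0.05. For the ligands at day 3, and the feedback genes and other targets at both days, DESeq2 and limma-voom also called 0 increases, and 0 had an unadjusted p under 0.05. The largest decreases at day 3 were those of *T*, *Mixl1* and *Cdx2*, transcription factor genes of the primitive streak and posterior embryo. *T* had means of 525 CPM in WT and 6.31 CPM in KO (log2 −6.71 ± 1.13, adjusted p = 0.002), *Mixl1* had 139 and 3.11 CPM (adjusted p = 0.000964) and *Cdx2* had 6.38 and 0.209 CPM (adjusted p = 0.000656). At day 0 the decreases of *T* (29.5 and 0.529 CPM, adjusted p = 0.0234) and *Fgf8* (8.13 and 0.269 CPM, adjusted p = 0.0202) were the largest, and both WT means came mostly from replicate 3, at 77.4 CPM of *T* against 4.64 and 6.42 CPM, and at 18.6 CPM of *Fgf8* against 1.97 and 3.81 CPM. Without that library the log2 values were −3.13 (adjusted p = 0.0639) for *T* and −3.13 (adjusted p = 0.0531) for *Fgf8*, in place of −5.49 and −4.81. Without WT day 3 replicate 3 the day 3 values were −7.39 for *T* and −6.28 for *Mixl1*, in place of −6.71 and −5.50, and 9 targets fell and 1, *Tbx3*, rose. *Tbx3*, a T-box gene of ESCs named here after its values were seen, had 154, 163 and 135 CPM in WT and 299.8, 394 and 325 CPM in KO at day 0, higher without overlap but not past the test (log2 1.14 ± 0.60, adjusted p = 0.217). The summed RNA of the 16 targets at day 0 was 357 to 625 CPM in WT and 519 to 638 CPM in KO. *T* and *Mixl1* are also primitive streak markers, all 12 of which fell in KO at day 3, and the part of that cell state in the Wnt genes' differences was not tested.

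**Figure D4:**
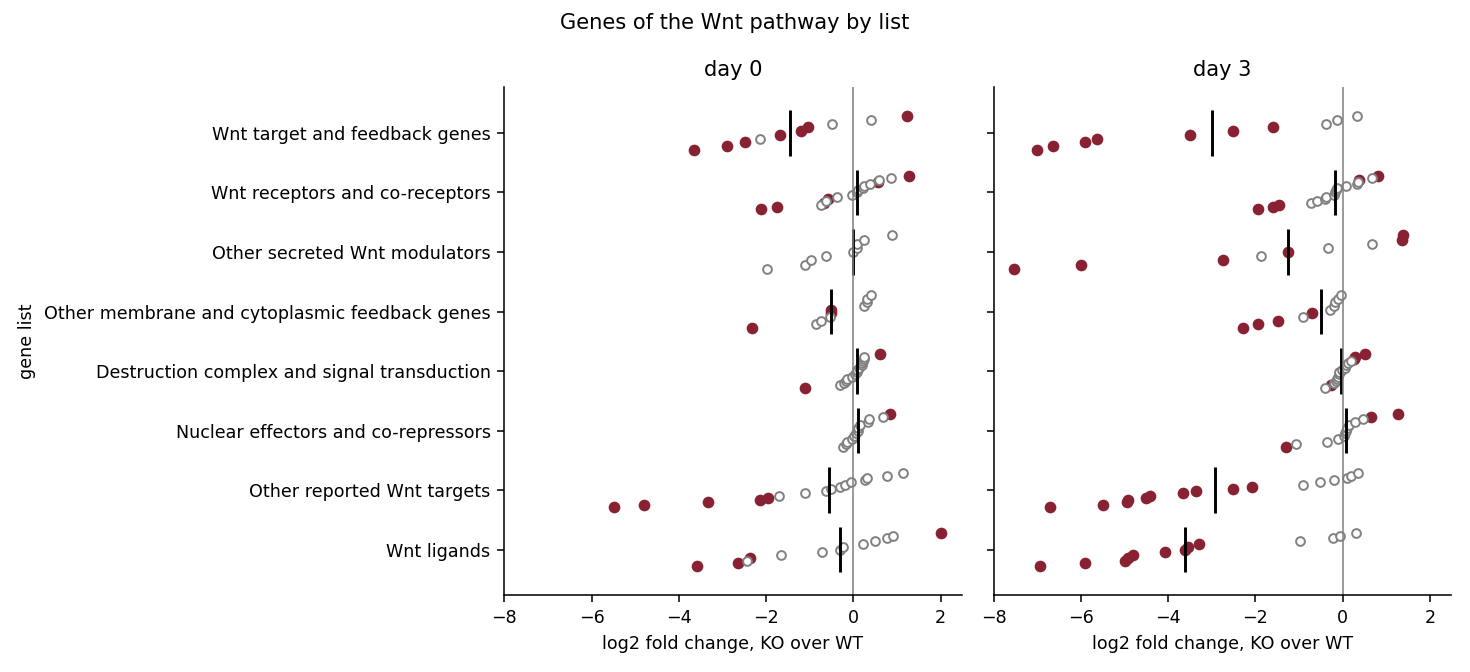
Log2 fold change of KO over WT for each tested gene of 8 Wnt pathway lists at day 0 (left) and day 3 (right), filled where the adjusted p was under 0.05, with a bar at the list median. At day 3 the medians are −3.003 for the 10 genes, −2.93 for other reported targets and −3.61 for ligands, while those of the destruction complex and nuclear effectors are −0.05 and 0.08. The ligand median includes *Wnt2*, *Wnt2b* and *Wnt9b*, which were over 1 CPM only in WT day 3 libraries.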

How the data were processed

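Polyadenylated RNA was sequenced from 12 samples, 3 in each of 4 groups, as single stranded-library reads. Per the submitters' processing notes, the authors used Cutadapt 1.3 for trimming, STAR 2.4.2a for alignment (build GRCm38) and HTSeq 0.6.1 for counting. The deposited values are raw counts per gene, not normalized. Reads aligned to several places, 36.5% to 44.1% of the alignments in a file, are not in the gene counts. Genes above 1 CPM in at least 1 sample (15673 genes) entered 1 quasi-likelihood fit of all 12 samples in edgeR 4.0.16 (R 4.3.3), TMM-normalized, with 4 groups. Replicate number was an additive block, the authors' own model having had a term for batch. Benjamini-Hochberg adjustment ran over all tested genes, and an adjusted p under 0.05 was a call. The standard error is the log2 fold change divided by the root of the F statistic. CPM are TMM-scaled, and CPM per kb use exon lengths of GENCODE M21 (GRCm38), whose gene positions are given. Same-numbered WT and KO samples of a day deviated together (6 pairs, correlation 0.291 to 0.639 over 13805 genes), and same-numbered samples of different days did not (−0.191 to 0.071), so the numbers pair genotypes within a day. The fit reported shares its block across both days, which these correlations do not back. The block within each day called more genes in every comparison, so a gene that did not pass in the fit reported may pass there. No replicates agreed within counting noise. By the mean chi-square per gene between libraries, replicate 1 was the furthest in WT day 0, KO day 0 and KO day 3, and replicate 3 in WT day 3. In WT day 0, replicate 1 was at 28.7 and 28.8 from the others, which were 14.8 apart. In KO day 3 these values were 28.6, 27.1 and 10.6. The fits were tested on simulated data. All 10 genes were named in every comparison, and from each other list up to 3 called genes with the largest change per direction at day 3 and up to 2 at day 0. The 10 genes and the lists were chosen with earlier results of these data known. Tle5 of the nuclear list matched more than 1 gene and was left out. Alternatives were the fit with no block or a block within each day, DESeq2 1.42.0, limma-voom (limma 3.58.1), RLE normalization, other filters, a fold threshold, the samples of 2 groups only, and each replicate left out. Promoter windows are from RefSeq (GRCm38.p6).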

Additional observations from a re-analysis of the deposited data

Results flagged for a closer look

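For 4 genes the difference between KO and WT itself differed between day 3 and day 0 in the edgeR test of that difference. The log2 values, day 3 effect minus day 0 effect, were −6.1655 for *Dkk1*, −2.4484 for *Axin2*, −3.148 for *Lgr5* and −3.7663 for *Rspo3*. *Dkk1* and *Axin2* were called in every setting in which they were tested. *Lgr5* was lost when KO day 0 replicate 2 or 3, or KO day 3 replicate 2 or 3, was left out, with adjusted p up to 0.222, and its KO day 0 libraries had 1, 3 and 10 reads. *Rspo3* was lost without the replicate block (adjusted p = 0.0652) and when any of 9 of the 12 libraries was left out, with adjusted p up to 0.14.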

How the results depend on the processing

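Of 728 recomputed log2 fold changes of the 10 genes, 664 kept their direction and side of the threshold, 30 lost and 29 gained a call, and 5 turned direction. With at least 10 counts required in every sample, 6 of the 10 genes were tested, and 3, 4 and 1 were called in KO against WT at day 3, in WT over time and in the change of the KO effect. Genes that are nearly off in KO are removed by that filter. With the replicate block within each day, 7 were called in KO over time and 7 in the change of the KO effect. With no replicate block, 6 and 7 genes were called between genotypes at day 0 and day 3, 8 and 4 over time in WT and KO, and 3 in the change of the KO effect. Leaving out 1 replicate gave 4 to 8 genes at day 0, 6 to 9 at day 3, 8 to 9 in WT over time, 4 to 5 in KO over time and 2 to 5 in the change of the KO effect. The low values came without WT day 0 replicate 3 (4 genes), and without KO day 0 replicate 2 or 3 or KO day 3 replicate 2 or 3 (2 genes each). The 5 turned values, none called in the fit reported, were 1 of *Notum* at day 3 (range without 1 replicate −0.38 to 0.18, positive without WT replicate 1), 3 of *Sfrp1* in WT over time (−0.053 with only those samples, range without 1 replicate −0.59 to 0.42, negative without WT day 0 or WT day 3 replicate 3) and 1 of *Rspo3* in KO over time (−0.32 to 1.42, negative without KO day 3 replicate 1). The cause was not tested. Over all genes, the samples of 2 groups alone gave 2659 increases and 2697 decreases at day 0, beside 1498 and 1703, and the block within each day gave 2633 and 2814, and at day 3 3530 and 3817 beside 2235 and 2611. For the change of the KO effect the block within each day gave 2535 and 2354 beside 1286 and 1150. The sum of increases and decreases over all genes was lower by more than 1.5 times at day 0 without WT replicate 3 (788 and 929), KO replicate 2 (863 and 902) or KO replicate 3 (894 and 899), at day 3 without KO replicate 2 (1439 and 1722) or 3 (1556 and 1351), and for the change of the KO effect without KO day 0 replicate 2 (743 and 648) or KO day 3 replicate 2 (775 and 730) or 3 (894 and 613). At 17.5 to 23.9 reads per CPM, the KO levels of *Sp5*, *Dkk1*, *Rspo3* and *Lgr5* rest on 26 reads or fewer per library.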

Other observations

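The marker lists place the Wnt genes' changes beside those of cell states. Of 12 primitive streak and mesendoderm markers, 12 fell in KO at day 3 and 3 at day 0, and their summed RNA at day 3 was 1371 to 1941 CPM in WT and 83.3 to 159 CPM in KO. Without WT day 0 replicate 3, 1 of them, *Lhx1*, was called at day 0 by edgeR, with 3 lower and 1 higher at an unadjusted p under 0.05. Over all tested genes, 16.7% fell and 14.3% rose at day 3, and 10.9% fell and 9.56% rose at day 0. Of 10 neuroectoderm markers, 6 were higher and 1 lower in KO at day 3, and 1 was higher and 5 lower at day 0. *Mesp1* of the streak list was over 1 CPM only in WT day 3 libraries, and *Nkx6-3* only in KO day 0 libraries. A fall of *Mesp1* at day 3 and a rise of *Nkx6-3* at day 0 were therefore the only directions open. *Neurog3* was over 1 CPM only in KO libraries. Pluripotency markers were split at day 3, with 5 of 10 higher and 2 lower in KO. Of 10 primitive and visceral endoderm markers 3 fell at day 3, and *Lama1* was the 1 that rose at day 0, a call lost without WT day 0 replicate 3. Of 11 tested feeder fibroblast markers 3 rose and 3 fell at day 3, when their sum was 58.2 to 97.1 CPM in WT and 46.9 to 94.9 CPM in KO.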
